A study of Macaca mulatta with 20 samples.

Results

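Heat shock proteins and their partner chaperones were followed in the blood of rhesus macaques before and after irradiation of the thorax. The group was fixed as 10 genes by name: HSP90AA1, HSPH1, HSPA8, HSPA1A, DNAJB1, HSPD1, HSPE1, HSP90B1, HSPA5 and HSPB1. All 10 had at least 1 probe on the array, 16 probes in all, and a probe was kept if it was well above background on at least 5 of the 20 arrays. By that rule 14 probes of 9 genes were kept, out of 19961 probes with 15929 gene names in the whole series.

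The animals were male macaques of Chinese genetic origin that received a single X-ray dose of 10 Gy to the whole thorax. RNA was isolated from whole blood, cleared of globin transcripts and read on human whole-genome arrays, which detect macaque transcripts through probes designed on human ones. The groups are pre-irradiation blood, drawn 3 days before the dose, and blood drawn 2, 5 and 30 days after it, with 5 arrays each and no other treatment given in the labels. Replicates carry numbers 1 to 5 in every group. Arrays of 1 number were assumed to come from 1 animal, since the study's methods pair by animal but do not tie the numbers to animals. RNA of some animals was pooled once on an array that the labels do not mark. No sham-irradiated animals are among the samples, so that effects of time and of the dose cannot be told apart.

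As background, heat shock proteins are chaperones that bind unfolded chains and help them fold, and many of them are made in larger amounts when proteins are damaged. HSP70 proteins hold short stretches of a chain, J-domain partners load chains onto them, exchange factors release them, and HSP90 finishes the folding of kinases and receptors. Separate sets work in mitochondria and in the endoplasmic reticulum, and lymphocytes and other blood cells use all of them at rest.

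Some of the probes described below are shown first, as the array files give them, with positions on human build hg19. Each probe called coding here has a reading frame open over its whole length, as 12 of the 14 kept probes have, and exon annotation was not checked. An open frame alone does not show coding sequence, since the HSPE1 probe that runs into a gap, described below, has one too. The word coding is therefore only a label. HSPH1 probe A_23_P88119, which is neither shown nor called coding, also has an open frame. The coding probes of HSP90AA1 lie on the minus strand of chromosome 14, at chr14:102550163-102550222 and chr14:102549453-102549512.
HSP90AA1 probe A_32_P199252: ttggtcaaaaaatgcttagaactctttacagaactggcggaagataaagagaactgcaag
HSP90AA1 probe A_23_P162874: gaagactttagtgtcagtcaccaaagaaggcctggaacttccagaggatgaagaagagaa
The coding probes of HSPH1 (chr13:31711509-31711568, minus strand) and of HSPA8 (chr11:122929478-122929537, minus strand) are shown because these genes were lower on the same day.
HSPH1 probe A_33_P3348752: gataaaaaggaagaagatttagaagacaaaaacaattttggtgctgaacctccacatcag
HSPA8 probe A_33_P3390758: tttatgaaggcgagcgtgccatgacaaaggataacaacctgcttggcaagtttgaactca
The pair of HSPE1 probes (chr2:198367803-198367942 and chr2:198367823-198367882, plus strand) shares a run of 31 bases, set in capitals, and differs in the other 29 bases. The first covers 140 bases of the genome with 60 bases of probe, so it crosses a gap of 80 bases, and the second runs on into that gap.
HSPE1 probe A_23_P56922: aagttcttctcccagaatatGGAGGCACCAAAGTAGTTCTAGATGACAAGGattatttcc
HSPE1 probe A_33_P3325306: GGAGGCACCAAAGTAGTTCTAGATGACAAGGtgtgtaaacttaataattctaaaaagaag

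No chaperone probe was called on any day. A call in limma, fitted over all 19961 probes, needed an unadjusted p-value below 0.005 and a false discovery rate (FDR, Benjamini-Hochberg) below 10%. At that threshold 0 of 14 chaperone probes were called on day 2, when 0.0601% of all probes were called, and 0 of 14 on days 5 and 30, when 0% of all probes were. The differences below are therefore described at an unadjusted p under 0.05, and a gene is said to be lower or higher without a claim that it changed. The lowest adjusted p in limma was 0.176 over the chaperone probes and 0.126 over the relatives described further on.

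At day 2 probes of HSP90AA1, HSPH1, HSPA8 and HSPE1 lay below their pre-irradiation level. At an unadjusted p under 0.05, 6 of 14 chaperone probes (42.9%) were lower and 0 were higher, against 6.55% of all probes lower and 8.47% higher. The 6 are the coding probes of HSP90AA1, both probes of HSPH1, the probe of HSPA8 and HSPE1 probe A_23_P56922. The median log2 change over the 14 probes was -0.45, against -0.04 over all probes tested. Taking 1 probe a gene, 8 of 9 genes were below 0, with a median of -0.37. The median over these genes was -0.45 in pair 1, -0.85 in pair 2, -0.14 in pair 3 and -0.56 in pair 4. In pair 5 it was 0.24, so that pair went the other way. In 5 of 14 probes every pair was lower, against 8.19% of all probes. A paired test run separately for each probe called 0 of these probes and gave 5 lower and 0 higher at an unadjusted p under 0.05.

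HSP90AA1 is the stress-inducible cytosolic form of HSP90. Its coding probes had the largest log2 changes of the kept chaperone probes at day 2. Its brightest probe, which stands for the gene in counts over genes, differed less than that of HSPH1 and is described below. Probe A_32_P199252 read 3.30, 3.24, 3.24, 3.42 and 2.79 before irradiation in replicates 1 to 5, in log2 signal relative to the 75th percentile of its array. At day 2 it read 2.27, 2.56, 2.17, 2.22 and 2.66, at day 5 2.80, 2.84, 2.64, 2.53 and 2.10, and at day 30 2.12, 2.81, 2.35, 3.77 and 2.69. Every day 2 array lay below every pre-irradiation array, and at day 30 replicate 4 stood above all pre-irradiation arrays while replicates 1 and 3 stayed near the day 2 level.
The log2 change at day 2 was -0.82 ± 0.19 (SE, n = 5 pairs), or 0.566 of the pre-irradiation signal, with an adjusted p of 0.176 in limma. The 95% confidence interval ran from -1.27 to -0.38.

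Probe A_23_P162874 of the same gene, printed 10 times on each array, read 4.87, 4.21, 4.22, 4.13 and 3.65 before irradiation and 3.18, 3.54, 3.07, 3.05 and 3.65 at day 2. The groups only just parted, since replicate 5 read 3.65 at both times. Its log2 change was -0.92 ± 0.24 (SE, n = 5 pairs), with an adjusted p of 0.196 in limma. At day 5 it read 3.70, 3.84, 3.67, 3.62 and 2.95, and at day 30 2.91, 3.81, 3.25, 4.75 and 3.83, the widest spread of any group of this probe (SD 0.70).

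The third HSP90AA1 probe, A_33_P3665777 (chr14:102547395-102547454), lies 2058 bases beyond the nearer of them, toward the transcript end, on hg19 and has a stop codon in every reading frame. It read 5.44, 6.03, 4.80, 5.42 and 4.91 before irradiation and 4.99, 5.03, 4.65, 4.75 and 5.33 at day 2, and the groups overlapped. Its log2 change of -0.37 ± 0.22 (SE, n = 5 pairs) at day 2 was smaller than that of the coding probes, with an adjusted p of 0.453 in limma. The difference between this probe and the mean of the other HSP90AA1 probes was 0.50 ± 0.51 (SD, n = 5 pairs) at day 2 and was above 0 in 4 of 5 pairs (exact two-sided sign-flip permutation test, p = 0.125). At day 5 it was 0.50 ± 0.31 (SD) and above 0 in 5 of 5 pairs, with an exact permutation p of 0.0625, the smallest that 5 pairs can give, and 0.188 after adjustment over the 3 days. At day 30 it was 0.67 ± 0.63 (SD), above 0 in 4 of 5 pairs, with an exact permutation p of 0.188.

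**Figure D1:**
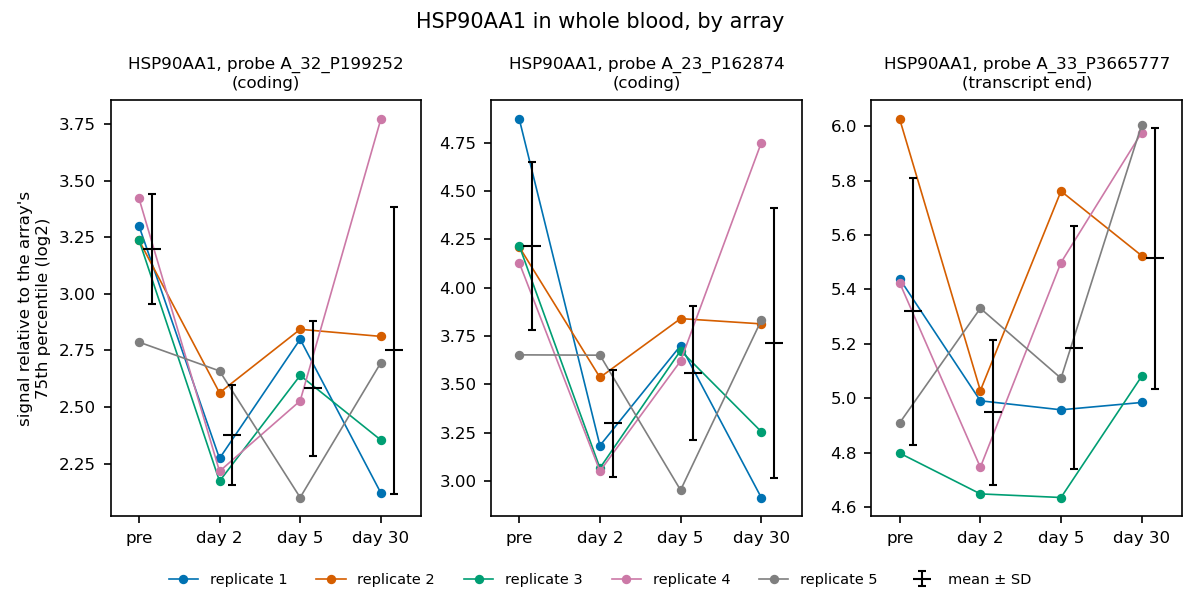
Log2 signal of the HSP90AA1 probes relative to the 75th percentile of each array (vertical axis) in the 4 groups (horizontal axis), with 1 coloured line for each replicate number and the mean ± SD of 5 arrays in black. In both coding probes the day 2 arrays lie at or below the lowest pre-irradiation array, while in the probe at the transcript end the groups overlap.

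HSPH1, an HSP110 protein that works as an exchange factor of HSP70, was lower in 5 of 5 pairs on both of its probes at day 2. Probe A_23_P88119 read 4.19, 4.78, 3.08, 3.86 and 3.48 before irradiation and 3.19, 3.62, 2.80, 3.01 and 3.40 at day 2. The groups overlapped, and replicate 3 was the lowest array at both times. Its log2 change was -0.67 ± 0.20 (SE, n = 5 pairs), with an adjusted p of 0.225 in limma, and that of the coding probe A_33_P3348752 was -0.56 ± 0.19 (SE, n = 5 pairs).

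HSPA8, the HSP70 that cells make at all times, was lower by less but without overlap. It read 3.83, 4.23, 4.26, 3.86 and 3.84 before irradiation and 3.60, 3.72, 3.48, 3.25 and 3.68 at day 2. Its log2 change was -0.46 ± 0.16 (SE, n = 5 pairs), with an adjusted p of 0.258 in limma. Day 2 arrays lay wholly below pre-irradiation arrays in 3 of 14 chaperone probes, against 1.09% of all probes, and this HSPA8 probe and the HSP90AA1 coding probes are the 3.

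HSPE1 and HSPD1 are the small and large rings of the mitochondrial chaperonin, and their genes lie side by side in the macaque annotation. HSPE1 probe A_23_P56922 read 4.45, 4.96, 4.27, 4.36 and 4.04 before irradiation and 3.99, 4.04, 3.69, 3.80 and 4.29 at day 2. Replicate 5 was higher at day 2 and the other 4 pairs were lower. Its log2 change was -0.45 ± 0.19 (SE, n = 5 pairs, adjusted p 0.324 in limma), and the probe that runs into the gap gave -0.48 ± 0.21. The correlation of the pair of HSPE1 probes over 20 arrays was 0.99, as a description. HSPD1 stood at -0.34 ± 0.18 (SE), with 4 of 5 pairs lower and an interval from -0.76 to 0.08.

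The remaining members did not pass an unadjusted p of 0.05 at day 2. DNAJB1, the J-domain partner that loads HSP70 during stress, stood at -0.37 ± 0.19 (SE) and was lower in 4 of 5 pairs. HSP90B1, the HSP90 of the endoplasmic reticulum, stood at 0.00 ± 0.16 on probe A_23_P2601 and at 0.07 ± 0.19 on probe A_33_P3408212. Their intervals, from -0.37 to 0.36 and from -0.37 to 0.51, leave out the estimates of -0.82 and -0.92 for the coding probes of HSP90AA1. The intervals of those coding probes reach up to -0.38 and -0.36, and the difference between the genes was not tested.

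The small heat shock protein HSPB1 and the stress-inducible HSP70 gene HSPA1A were dim and variable. HSPA1A was well above background on 12 of 20 arrays, with replicate values from -6.43 to -1.69 before irradiation and from -6.17 to -2.41 at day 2, so that its change of -0.54 ± 0.42 (SE) has an interval from -1.52 to 0.44. Its near-identical copy HSPA1B, read well above background on all 20 arrays, stood at -0.29 ± 0.40 (SE) at day 2. Whether the probe of either copy reads only its own transcript was not checked. HSPB1 probe A_33_P3287646, well above background on 19 of 20 arrays, stood at 0.53 ± 0.49 (SE), with 2 of 5 pairs higher. HSPA5, the HSP70 of the endoplasmic reticulum, was not well above background on any array, and neither was the second HSPB1 probe, A_33_P3353242, on more than 1 array, so both were left out of the counts. The match of these human probes to the macaque transcripts was not checked. A dim probe therefore does not show that the gene is silent in macaque blood.

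**Figure D2:**
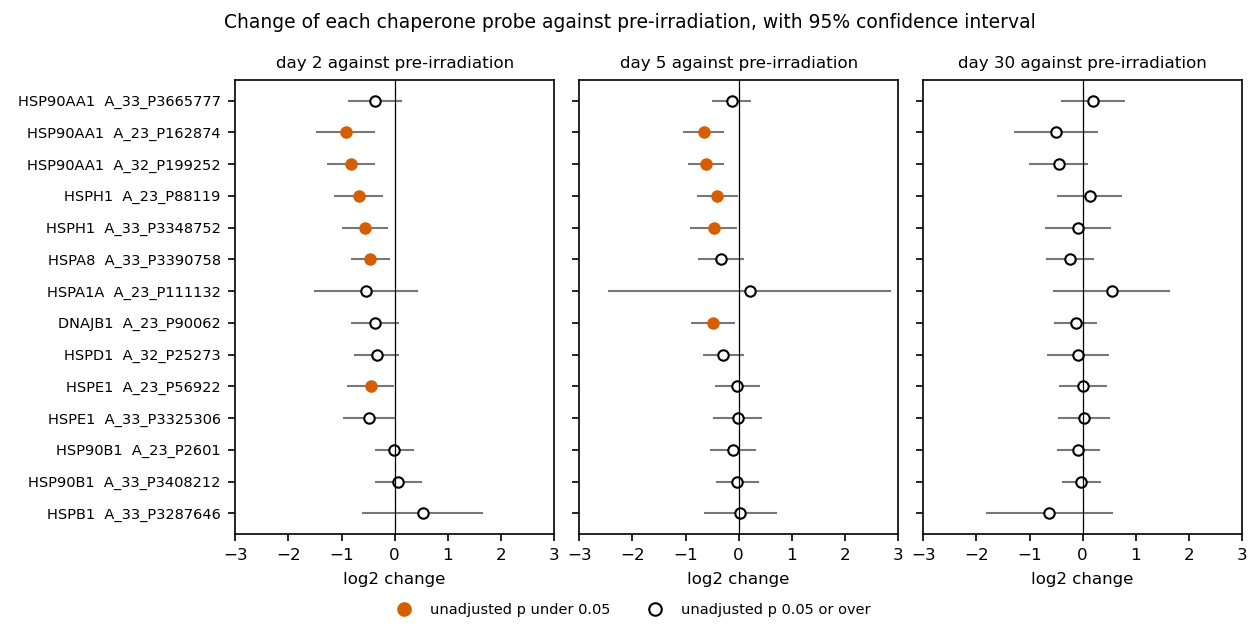
Log2 change of each of the 14 chaperone probes against pre-irradiation (horizontal axis) on days 2, 5 and 30, with its 95% confidence interval from limma over 5 pairs. Filled points have an unadjusted p under 0.05, and they number 6 on day 2, 5 on day 5 and 0 on day 30, all of them below 0.

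At day 5 the coding probes of the cytosolic HSP90AA1 and the probes of HSPH1 and DNAJB1 were lower, and the mitochondrial HSPE1 lay near its starting level. At an unadjusted p under 0.05, 5 of 14 probes (35.7%) were lower and 0 higher, against 3.82% of all probes lower and 7.35% higher. They are the coding probes of HSP90AA1, both probes of HSPH1 and the probe of DNAJB1. Every pair was lower in 4 of 14 probes, against 5.86% of all probes, and in 0 of 14 did the groups part, against 0.316% of all.
HSP90AA1 stood at -0.62 ± 0.14 and -0.66 ± 0.16 (SE, n = 5 pairs) on its coding probes, each lower in 5 of 5 pairs, with adjusted p of 0.289 and 0.300 in limma. On its brighter end probe A_33_P3665777 it stood at -0.13 ± 0.16 (SE), with 2 of 5 pairs higher. DNAJB1 read 1.63, 2.03, 1.38, 1.65 and 1.49 before irradiation and 1.61, 0.97, 0.95, 1.07 and 1.14 at day 5. All but replicate 1 lay below the lowest pre-irradiation array, and its log2 change was -0.49 ± 0.18 (SE, n = 5 pairs, adjusted p 0.394 in limma). HSPE1 stood at -0.03 ± 0.18 and -0.02 ± 0.20 (SE) on its probes.

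At day 30 no chaperone probe reached an unadjusted p of 0.05 against pre-irradiation, against 10.1% of all probes lower and 7.43% higher. The median log2 change over the 14 probes was -0.08, against -0.02 over all probes. In 0 of 14 probes was every pair lower, against 10.5% of all, and in 0 of 14 did the groups part, against 1.19%. The pairs went apart: over 1 probe a gene, the median change was -0.46 in pair 1, -0.32 in pair 2, -0.25 in pair 3, 0.28 in pair 4 and 0.55 in pair 5. The HSP90AA1 probes went apart. Probe A_32_P199252 stood at -0.45 ± 0.24 (SE), with 4 of 5 pairs lower and an interval from -1.0 to 0.11. Probe A_23_P162874 stood at -0.50 ± 0.35 (SE), with 3 of 5 pairs lower. The end probe A_33_P3665777 stood at 0.19 ± 0.26 (SE), with 3 of 5 pairs higher.

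**Figure D3:**
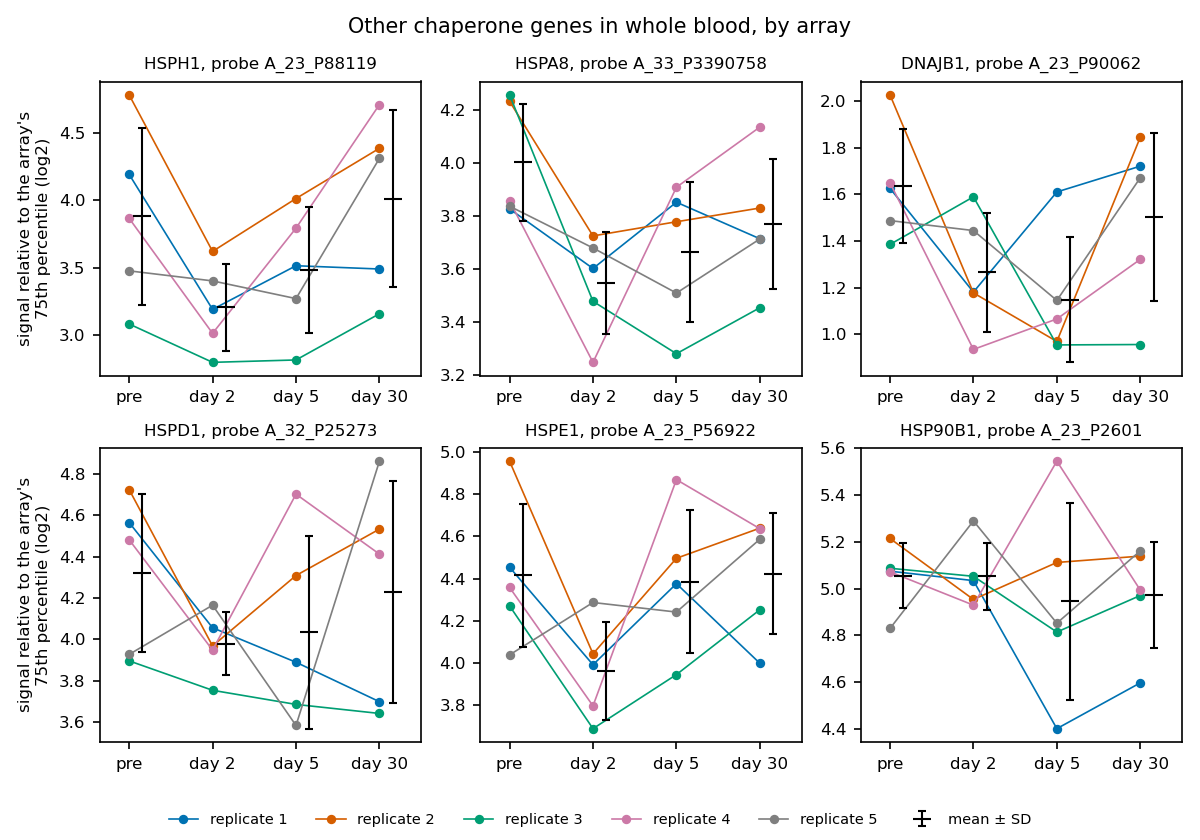
Log2 signal of 1 probe each of HSPH1, HSPA8, DNAJB1, HSPD1, HSPE1 and HSP90B1 relative to the 75th percentile of each array (vertical axis) in the 4 groups (horizontal axis), with 1 coloured line for each replicate number and the mean ± SD of 5 arrays in black. The mean is lowest at day 2 for HSPH1, HSPA8, HSPD1 and HSPE1 and at day 5 for DNAJB1, and the 5 lines cross at day 30.

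Between days 2 and 30 some chaperones were higher again. These comparisons share the day 2 arrays with those above, so their values are not a separate support. Of 14 probes, 0 were called, against 0.0501% of all, and 4 (28.6%) were higher at an unadjusted p under 0.05, against 5.4% of all probes. Without replicate 4 the count was 1 of 14. They are HSPH1 probe A_23_P88119 at 0.81 ± 0.22, both HSPE1 probes at 0.46 ± 0.16 and 0.50 ± 0.16, and the end probe of HSP90AA1 at 0.57 ± 0.19 (SE, n = 5 pairs, adjusted p 0.359 to 0.364 in limma). In 4 of 14 probes every pair was higher, against 7.03% of all probes. HSPH1 read 3.49, 4.38, 3.16, 4.71 and 4.31 at day 30, with replicates 2, 4 and 5 above every day 2 array.
Between days 5 and 30, 0 probes were called, against 0% of all, and 1 of 14 was higher at an unadjusted p under 0.05, against 1.84%, the HSPH1 probe A_23_P88119 at 0.53 ± 0.21 (SE). Between days 2 and 5, 0 were called, against 0%, and 0 were higher, against 2.17%.

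Some members kept step with one another over the arrays, as a description with no test. Over the 20 arrays the end probe of HSP90AA1 and HSPH1 probe A_23_P88119 had a Pearson r of 0.93, and HSPH1 and HSPD1 had 0.82. The probes of other genes most like the HSP90AA1 coding probes, among 15322 probes well above background on all arrays, were mostly named as chaperone pseudogenes. The pseudogene HSP90AA2P came first for both (r of 0.98 and 0.96), and probes that the array file describes as an HSP90 class B pseudogene and an HSPD1 pseudogene followed (0.94 and 0.95 for A_23_P162874). Which transcripts these probes bind in macaque blood was not tested. CACYBP, which codes for a calcyclin-binding protein, was the only gene among them outside the chaperones (r of 0.87 for A_32_P199252), and it stood at -0.54 ± 0.16 (SE, n = 5 pairs, adjusted p 0.223 in limma) at day 2.

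Relatives and partners of these chaperones were taken as 9 lists with 112 genes, of which 103 genes with 140 probes were tested. None was called in limma on any day. At an unadjusted p under 0.05, 14 probes (10%) were lower and 6 (4.29%) higher at day 2. At day 5, 9 (6.43%) were lower and 6 higher, and at day 30, 10 (7.14%) were lower and 9 higher, all to be read against the background shares given above.

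Among HSP90 relatives and co-chaperones, 5 of 18 probes (27.8%) were lower at day 2 and 1 (5.56%) was higher, against 6.55% and 8.47% of all probes. HSP90AB1, the HSP90 form made at all times, was lower in 5 of 5 pairs on both probes at day 2, at -0.60 ± 0.20 on probe A_24_P823684 and -0.33 ± 0.15 on probe A_23_P145089 (SE), the latter short of an unadjusted p of 0.05 in limma. ST13, an adaptor between HSP70 and HSP90, is counted in the list of HSP70 exchange factors and adaptors. It was lower in 5 of 5 pairs on all 3 days on probe A_23_P68949, at -0.64 ± 0.20, -0.49 ± 0.13 and -0.57 ± 0.17 (SE, adjusted p 0.235, 0.327 and 0.179 in limma). Of its 6 kept probes, A_32_P156892 was also lower at an unadjusted p under 0.05 on all 3 days, and the other 4 did not reach that p on any of them. AHSA2 probes went apart between days 2 and 30, at -0.78 ± 0.15 and 0.50 ± 0.15 (SE), and no direction is given for that gene.

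Of 25 probes of J-domain co-chaperones, 5 (20%) were lower and 0 higher at day 2, against 6.55% and 8.47% of all probes. At day 30 against day 2, 8 (32%) were higher and 1 (4%) lower, against 5.4% and 7.44% of all probes. DNAJC1, a J-domain protein of the endoplasmic reticulum, stood at -0.56 ± 0.16 at day 2 and at 0.61 ± 0.14 between days 2 and 30 on probe A_23_P127128 (SE, adjusted p 0.217 and 0.300 in limma). DNAJA4 stood at -0.60 ± 0.17 at day 2, lower in 5 of 5 pairs. Of 16 probes of the cytosolic chaperonin CCT and prefoldin, 14 were below 0 at day 2, when 55.1% of all probes were, with a median of -0.23, and CCT4 stood at -0.42 ± 0.16 (SE). HSP70 exchange factors and adaptors gave 2 of 22 probes (9.09%) lower at day 2, near the 6.55% of all probes, and 0 higher. Both lower probes are those of the adaptor ST13 described above, and no exchange factor was among them. Mitochondrial chaperones and proteases gave 1 of 13 lower (7.69%), near the 6.55% of all probes, with AFG3L2 at -0.47 ± 0.16. HSP70 relatives gave 0 of 7 in either direction.

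Genes of endoplasmic reticulum folding and stress lay above 0 in 17 of 27 probes at day 2, when 55.1% of all probes lay below 0. At an unadjusted p under 0.05, 4 of 27 (14.8%) were higher and 0 lower, against 8.47% and 6.55% of all probes. PPP1R15A, the phosphatase subunit that restores translation after stress, read -0.69, -1.09, -0.85, -1.0 and -0.37 before irradiation and 0.11, -0.40, 0.85, -0.17 and -0.07 at day 2. It was higher in 5 of 5 pairs, at 0.86 ± 0.21 (SE, adjusted p 0.190 in limma), and at day 30 it stood 0.78 below day 2. DDIT3, the stress transcription factor CHOP, was higher in 5 of 5 pairs at day 2, at 0.75 ± 0.19 (SE, adjusted p 0.194 in limma), and stood at 0.60 and 0.57 on days 5 and 30.

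The regulators of the heat shock response gave no single direction. HSBP1, which binds heat shock factor 1, was higher in 5 of 5 pairs on both probes at days 5 and 30, at 0.87 ± 0.19 and 0.78 ± 0.20 on probe A_33_P3244181 (SE, adjusted p 0.285 and 0.153 in limma). HSF1, the main heat shock factor, read 5.49, 4.52, 5.95, 5.25 and 4.38 on probe A_33_P3347932 before irradiation and 3.44, 3.89, 4.98, 4.05 and 3.48 at day 30. Its log2 change was -1.15 ± 0.23 (SE, n = 5 pairs, adjusted p 0.126 in limma), lower in 5 of 5 pairs, but probe A_23_P253841, which overlaps it by 12 bases, stood at 0.10 ± 0.18, so the HSF1 probes disagree. SERPINH1, the collagen chaperone, stood at -1.31 ± 0.34 (SE) at day 30 but was well above background on 9 of 20 arrays and on 1 of 5 at day 30. With normexp background correction it stood at 0.063, so no direction is given for it.

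Other genes named by the same rule had smaller support. HSPA1L, an HSP70 relative, was higher in 5 of 5 pairs at day 30, at 0.71 ± 0.22 (SE), on a probe well above background on 2 of 5 pre-irradiation arrays and 16 of 20 in all. HSPA4, an HSP110 relative, stood at -0.38 ± 0.16 at day 5 on one of its probes and at -0.15 ± 0.15 on the other. BAG4, an HSP70 exchange factor, stood at 0.57 ± 0.23 at day 30 on one probe and at 0.31 ± 0.28 on the other. CRYAA, a small heat shock protein of the lens, stood at -0.61 ± 0.19 at day 30 on the single probe of 3 that was kept. CRYAB stood at 0.55 ± 0.17 between days 2 and 5. CCT3 stood at 0.74 ± 0.31 at day 5 on a probe well above background on 8 of 20 arrays and 1 of 5 before irradiation, but at -0.15 ± 0.14 on the probe well above background on all 20, so no direction is given for it. HSCB, a mitochondrial J-domain protein, stood at -0.48 ± 0.20 between days 5 and 30 on one probe and at -0.08 ± 0.20 on the other.

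**Figure D4:**
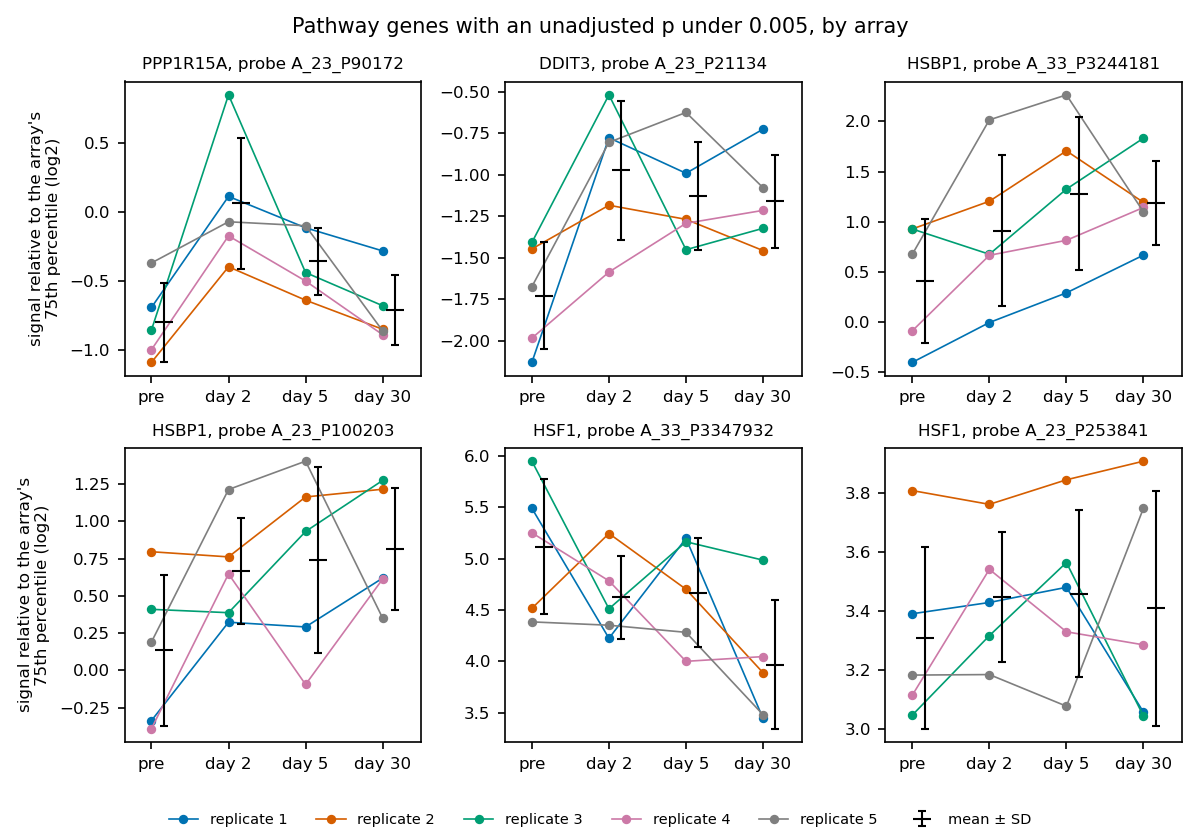
Log2 signal of PPP1R15A, DDIT3, HSBP1 and HSF1 probes relative to the 75th percentile of each array (vertical axis) in the 4 groups (horizontal axis), with 1 coloured line for each replicate number and the mean ± SD of 5 arrays in black. PPP1R15A and DDIT3 are higher at day 2 in all 5 replicates, both HSBP1 probes are higher at day 30 in all 5, and only one of the HSF1 probes is lower at day 30.

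Markers of blood cells differed on the same days. The counts here are at an unadjusted p under 0.05. At day 2, 10 of 15 T and NK cell probes and 4 of 4 B cell probes were lower, against 6.55% of all probes. Of neutrophil probes 5 of 7 were higher, of monocyte probes 4 of 6 and of platelet probes 7 of 7, against 8.47% of all. Of 8 erythroid probes and 3 probes of PTPRC, 0 passed in either direction. At day 5, 3 of 15 T and NK cell probes and 4 of 4 B cell probes were lower, against 3.82% of all. Neutrophil, monocyte and platelet probes were then higher in 6 of 7, 2 of 6 and 2 of 7, against 7.35% of all. The summed level of the T and NK cell genes ran from 7.39 to 7.92 in log2 before irradiation, from 6.81 to 7.37 at day 2, from 6.52 to 8.09 at day 5 and from 6.76 to 7.77 at day 30. For B cell genes it ran from 5.95 to 6.86, 5.28 to 6.25, 5.70 to 6.10 and 5.37 to 6.51, for neutrophil genes from 7.00 to 8.86, 8.25 to 9.96, 7.92 to 9.60 and 8.43 to 10.5, and for platelet genes from 4.93 to 6.82, 6.87 to 8.73, 6.10 to 7.48 and 5.77 to 6.41. In the same order of groups, monocyte genes ran from 6.30 to 7.81, 7.20 to 8.23, 6.33 to 8.02 and 7.23 to 8.28, and PTPRC, which all leukocytes carry, from 6.04 to 6.83, 6.17 to 6.69, 5.94 to 6.76 and 5.97 to 6.79. Erythroid genes ran from 11.4 to 11.8, 11.1 to 11.9, 11.5 to 12.3 and 11.0 to 12.03.
The B cell markers MS4A1 and PAX5 and the neutrophil marker MMP8 were well above background on 2, 0 and 1 arrays, and no probe of the liver and lung genes ALB, SFTPC and SFTPB was kept. The match of these probes to macaque transcripts was not checked either. The part of the blood cell mixture in the chaperone values was not tested, and in whole blood fewer cells of a type and less RNA per cell cannot be told apart.

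Well above background were 50.9% to 67.3% of spots, and the highest share, on day 5 replicate 3, stood apart from the other arrays, which reached 58.8%. Without replicate 3, 3 of 14 chaperone probes were lower at an unadjusted p under 0.05 at day 5. Precision is limited by how few arrays each group has. In simulated data for day 2 the same fit called 1 of 50 probes changed by 0.5 in log2 and 22 of 50 changed by 1. The chaperone differences from pre-irradiation lie between or below these sizes. The simulated set also held 50 probes changed by 2 and 50 changed by 3, of which 46 and 48 were called. Many strong changes loosen the FDR cut-off, and the real day 2 fit called only 12 probes. These rates may therefore be too high for the real data.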

How the data were processed

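Globin-depleted whole blood RNA was hybridized with 1 dye to 20 Agilent Whole Human Genome arrays, 5 slides with 1 array of each group on every slide. Scanner tables from Feature Extraction (version 12.0.2.2 per the file headers, 10.7 in the submitters' processing notes) were deposited for every array. In these deposited tables the processed signal intensity has its background removed by Feature Extraction but no scaling across arrays. A smaller deposited table of log2 values covers 5884 probes, was used as an alternative only and holds 4 of the chaperone probes.

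Outlier and control spots were left out, log2 intensities were averaged over a probe's spots, and each array was centred on the 75th percentile of all its spots. A probe was tested if well above background (in at least 0.5 of its spots) on at least 5 arrays and measured in at least 4 pairs, which held for 19961 of 34127 probes. Each comparison was fitted on its own arrays in limma 3.58.1 (R 4.3.3) with the replicate number as a block, since the study's methods paired comparisons by animal. The methods do not tie replicate numbers to animals, so pairing by number is an assumption. Arrays of 1 number deviated together from their group means in every pair at days 2 and 5 (r from 0.19 to 0.51 and from 0.18 to 0.70) (although at day 2 only 2 of 5 replicates correlated best with their own number) but less so at day 30 (r from 0.04 to 0.45, above 0.1 in 3 of 5 pairs) or between days 2 and 30 (r from -0.22 to 0.50). A limma call needed an unadjusted p-value below 0.005 and a Benjamini-Hochberg false discovery rate below 10%.

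The members and the lists of relatives and blood cell markers were chosen with earlier results of these data known, so counts over them are descriptions. Every member probe was accounted for. Among relatives, genes with a p under 0.005 in any comparison and the 2 genes with the lowest p of each list against pre-irradiation were named. For counts over genes the brightest probe stood for the gene. The fit was tested on simulated data. Quantile, median and normexp processing (offset 50), other filters, blocks and thresholds and each replicate left out were tried. Of the member symbols, 9 of 10 occur in the macaque annotation, and positions are human hg19 from the array files. Tables and figures used Python 3.11.15, pandas 2.3.3 and matplotlib 3.10.9.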

Additional observations from a re-analysis of the deposited data

Results flagged for a closer look

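In 1 of 56 sets of 5 arrays, over 14 chaperone probes and 4 groups, a single array lay far from the rest, where chance alone gives about 2.8. HSP90AA1 probe A_23_P162874 read 2.95 at day 5 in replicate 5, and the nearest of the other day 5 arrays read 3.62. The second HSPB1 probe, A_33_P3353242, which entered no comparison, read -3.02 and was well above background at day 5 in replicate 3, against at most -5.08 before irradiation. That array also had the highest share of spots well above background, and the part of this in the HSPB1 value was not tested.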

How the results depend on the processing

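No chaperone probe was called in any of the 6 comparisons under any of the 17 alternatives run, and the lowest adjusted p of a chaperone probe was 0.0973, for HSP90AA1 probe A_23_P162874 at day 2 in the deposited log2 values, with an unadjusted p of 0.00684. Over all probes, the count of calls at day 2 ran from 0 to 588, and at day 30 from 0 to 952, against 12 and 0 as reported. The count of chaperone probes at an unadjusted p under 0.05 depended more on the settings. With normexp it was 10 at day 2, 2 at day 30, 4 between days 2 and 5, 7 between days 2 and 30 and 0 between days 5 and 30. The normexp median at day 2 was 0.17 over all probes, against -0.04 as reported, and -0.82 over the chaperones. In the deposited log2 values, which hold 4 of these probes, it was 2 at day 2, 1 at day 5 and 2 between days 2 and 30. Without the replicate block it was 3 at day 5, 1 between days 2 and 5 and 0 between days 5 and 30. With the slide as a block it was 2 at day 5, 2 between days 2 and 5 and 0 between days 5 and 30. Without the filter on dim probes it was 1 at day 30 and 1 between days 2 and 5. Between days 2 and 5 it was 1 with quantile normalization and 2 with probes well above background on all arrays, with all arrays in one fit or with an intensity trend, and between days 5 and 30 it was 3 with median scaling and 0 in a paired test run separately for each probe. Leaving out each replicate in turn gave 4 to 9 at day 2, 2 to 5 at day 5, 0 to 2 at day 30, 0 to 3 between days 2 and 5, 1 to 5 between days 2 and 30 and 0 to 1 between days 5 and 30. The fewest at day 5 came without replicate 2 and the fewest between days 2 and 30 without replicate 4. Of the 24 log2 changes named at these thresholds, 370 of 371 alternative values kept their sign. The exception was SERPINH1 at day 30, at 0.063 with normexp. Over all tested chaperone probes and comparisons, named or not, 81 of 1272 alternative values had the other sign, the largest change among them being that of HSPA1A between days 2 and 30, at 1.09 as reported and -0.02 with normexp. HSF1 probe A_33_P3347932 at day 30 was called under 4 alternatives, among them normexp, and HSBP1 under 2. The causes were not tested. The number of arrays and the share of probes well above background limit all of these values.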
